A study of Mus musculus with 12 samples.

Results

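The epidermal growth factor (EGF) family is a set of membrane-anchored growth factors and the ERBB receptor tyrosine kinases they bind. The 10 genes described here are the ligands Egf, Tgfa, Hbegf, Areg, Ereg and Btc and the receptors Egfr, Erbb2, Erbb3 and Erbb4. They were listed by name and found by symbol among the 55536 genes counted in each library, and all 10 were matched. Of these, 8 had enough counts to be tested, and Areg and Ereg did not.

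The ligands are made as membrane precursors, and shedding proteases such as ADAM17 cut them loose to act on the same or neighbouring cells. EGFR binds every ligand in the list, ERBB4 binds Btc, Hbegf and Ereg as well as neuregulins, ERBB3 binds neuregulins and has little kinase activity of its own, and ERBB2 has no known ligand and pairs with the others. Activated receptors signal through RAS and ERK, PI3K, STAT and PLC-gamma proteins, and the epithelium of the most proximal epididymis is known for ERK activity that depends on factors arriving in the lumen from the testis.

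Polyadenylated RNA was sequenced from segments 1, 2 and 3 of the epididymis of wild-type mice, counted from the end nearest the testis. In the ligated groups a suture closed the efferent ducts, which bring fluid and sperm from the testis, at their entry into the caput; the control epididymides were not ligated. Each of the 6 groups (ligated segments 1, 2 and 3 and control segments 1, 2 and 3) held 2 libraries, 1 from sequencing batch 3017 and 1 from batch 3097. Each library was a pool of 2 mice made from 500 ng of RNA, so p-values measure the spread between pools. The time after ligation, the age of the mice and whether segments or sides shared mice were looked for, and none of these is given in the sources used here.

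Totals were 30.5 to 42.3 M counts per library, and 3 counts were worth 0.070 to 0.103 CPM (counts scaled to the library total). Levels are CPM after TMM scaling. Adjusted p-values are Benjamini-Hochberg values of edgeR's quasi-likelihood test over 19213 genes, with calls under 0.05. The sum of 6 marker genes of segment 1 principal cells was 204 to 234 CPM in ligated segment 1, against 38201 to 40827 CPM in control segment 1. The summed markers of the general epididymal epithelium, among them Gpx5 and Cdh1, were 48563 to 55345 CPM against 48748 to 64054 CPM. The control libraries of segment 2 differed more from each other (chi-square over genes, per degree of freedom, 115.5) than the pair of any other group (22.6 to 80.1). Their segment 1 principal cell markers summed to 11501 and 1868 CPM in batches 3017 and 3097.

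Promoter sequence is shown for Tgfa and Egf, the EGFR ligands with the highest levels per length after ligation, and for their receptor Egfr. Each window is the 250 bases before a RefSeq start on GRCm38.p6, written 5′ to 3′ on the gene's strand. Capitals mark matches on either strand to any of CCGGAAG (an ETS-type core), TGANTCA (AP-1), TGACGTCA (a cAMP response element) and GGGCGG (SP1-type).
Tgfa (chr6:86194972-86195221, plus strand): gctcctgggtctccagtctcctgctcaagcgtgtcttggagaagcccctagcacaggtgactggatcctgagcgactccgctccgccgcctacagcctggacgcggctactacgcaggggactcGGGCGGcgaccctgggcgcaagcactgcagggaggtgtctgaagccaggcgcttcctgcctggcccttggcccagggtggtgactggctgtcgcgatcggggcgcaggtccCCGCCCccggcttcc
Egf (chr3:129755323-129755572, minus strand): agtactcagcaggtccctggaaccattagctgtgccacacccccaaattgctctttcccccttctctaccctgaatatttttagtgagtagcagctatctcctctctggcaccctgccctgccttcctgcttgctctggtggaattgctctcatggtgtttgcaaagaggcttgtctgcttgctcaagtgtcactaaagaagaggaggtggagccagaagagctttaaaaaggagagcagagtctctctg
Egfr (chr11:16751953-16752202, plus strand): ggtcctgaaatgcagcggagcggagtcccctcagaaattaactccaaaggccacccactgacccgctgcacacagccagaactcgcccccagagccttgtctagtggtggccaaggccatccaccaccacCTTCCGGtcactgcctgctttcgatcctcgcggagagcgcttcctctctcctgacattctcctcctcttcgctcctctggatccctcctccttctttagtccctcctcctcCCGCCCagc
The Tgfa window was GC-rich, with 69.2% G or C, 19 CG dinucleotides and 2 SP1-type matches. The Egfr window held 60.8% G or C, 11 CG dinucleotides, 1 ETS-type and 1 SP1-type match. The Egf window differed from both, with 50.4% G or C, 0 CG dinucleotides and 0 matches, and all of its 250 bases lie in an exon of the antisense gene 6330410L21Rik. A second Egf start in RefSeq lies inside the gene (window chr3:129725087-129725336) and holds 15 CG dinucleotides and 1 ETS-type match. Among 32841 promoter windows of the same length, 6.91% held the ETS-type letters, 6.75% the AP-1 letters, 1.55% the cAMP response element and 32.7% the SP1-type letters. RefSeq windows of 7 of the 10 genes were found; those of Hbegf, Ereg and Erbb3 are not shown. A match is a description of the letters and not a binding site.

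In segment 1 the ligands changed places after ligation: Tgfa, Egf and Btc rose and Hbegf fell. Of the 8 tested genes, 7 were called higher and 1 lower in ligated segment 1, while 48.7% of all tested genes were called in this comparison, 24.4% higher and 24.4% lower. That split of 4684 higher and 4679 lower is relative to TMM scaling; library totals alone shifted the median of all genes by 0.20 (log2) and the split to 6505 and 3130. Of the 8 genes, Tgfa had the smallest adjusted p, and Hbegf was the one that fell.

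Tgfa, which encodes transforming growth factor alpha (ENSMUSG00000029999, GRCm38 chromosome 6, 86195223 to 86275719), had 36.1 and 37.3 CPM in ligated segment 1, against 5.81 and 5.81 CPM in control segment 1. Both ligated libraries were far above both controls, and the pools of a group lay close together. The log2 fold change was 2.66 ± 0.13 (SE), or 6.30-fold (adjusted p = 5.18e-06), with 2.54 and 2.58 within batches 3017 and 3097 on log2 of CPM plus 0.5.

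Hbegf, the heparin-binding ligand of EGFR and ERBB4 (ENSMUSG00000024486, chromosome 18, 36504927 to 36515805), moved the other way. It had 2.17 and 2.21 CPM in ligated segment 1, against 32.6 and 23.1 CPM in control segment 1. The ligated libraries were alike and both below the controls, which differed between the batches. The log2 fold change was -3.65 ± 0.24, or 12.5-fold lower after ligation (adjusted p = 1.19e-05), with -3.63 and -3.12 within batches 3017 and 3097.

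Egf, the founding ligand, made as a large membrane precursor (ENSMUSG00000028017, chromosome 3, 129677565 to 129755316), had 17.0 and 20.0 CPM in ligated segment 1, against 5.38 and 5.84 CPM in control segment 1. The groups did not overlap. Its log2 fold change was 1.72 ± 0.26 (adjusted p = 0.00105), with 1.57 and 1.70 within batches 3017 and 3097. Exons of 2 antisense genes overlap Egf exons by 500 and 607 bases; these genes held 95 and 18 counts over all libraries, where Egf had 196 to 1666 counts in each, and whether the counting used strand is unknown.

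Btc, encoding betacellulin, a ligand of EGFR and ERBB4 (ENSMUSG00000082361, chromosome 5, 91357261 to 91402994), was low throughout. It had 1.68 and 1.34 CPM (72 and 48 counts) in ligated segment 1, against 0.426 and 0.596 CPM (17 and 20 counts) in control segment 1. Both ligated libraries lay above both controls, and the log2 fold change was 1.56 ± 0.33 (adjusted p = 0.00386), with 1.24 and 0.750 within batches 3017 and 3097.

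The amphiregulin gene Areg (ENSMUSG00000029378, chromosome 5, 91139599 to 91148432) and the epiregulin gene Ereg (ENSMUSG00000029377, chromosome 5, 91074622 to 91093646) neighbour each other and were near the limit of detection. Areg had 6 and 13 counts in ligated segment 1, against 0 and 4 counts in control segment 1. It had 0 and 3 counts in ligated segment 2 and 2 and 2 in ligated segment 3, against 0 in both control libraries of segments 2 and 3, which allows up to 3 counts per library by counting error alone. Ereg had 0 to 5 counts per library, with the highest count in the ligated segment 1 library of batch 3097. Neither was tested, and no fold is given.

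**Figure D1:**
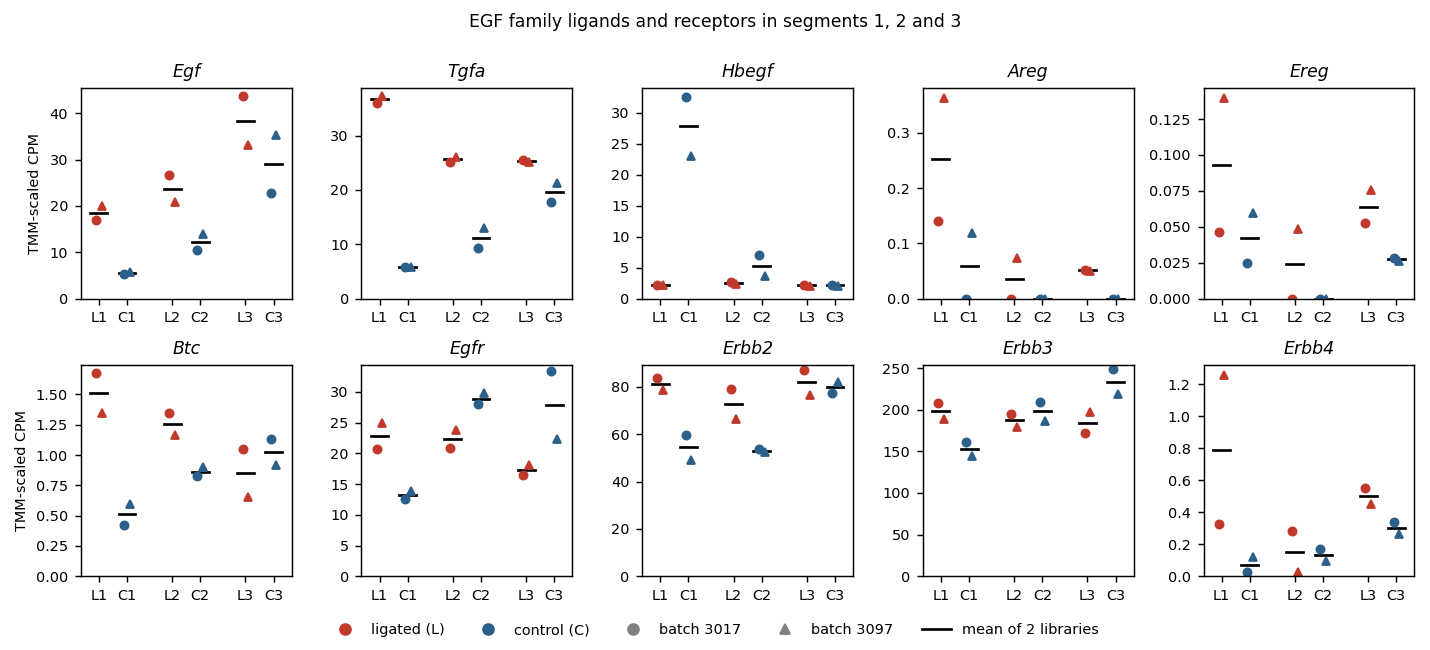
TMM-scaled CPM (y axis, from 0) of each of the 10 genes in each library, with ligated (L) and control (C) segments 1 to 3 on the x axis; circles are batch 3017, triangles batch 3097 and bars the mean of 2 libraries. Hbegf stands out in control segment 1, at 32.6 and 23.1 CPM, while Tgfa, Egf and Btc are at their lowest there.

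Among the receptors, changes in segment 1 were smaller. Erbb3 (ENSMUSG00000018166, chromosome 10, 128567523 to 128589652) had 209 and 189 CPM in ligated segment 1, against 161 and 145 CPM in control segment 1. Erbb2 (ENSMUSG00000062312, chromosome 11, 98412470 to 98437716) had 84.0 and 78.8 CPM, against 59.9 and 49.3 CPM. Egfr (ENSMUSG00000020122, chromosome 11, 16752203 to 16918158) had 20.7 and 24.9 CPM, against 12.6 and 13.9 CPM. In each of these the ligated libraries lay above the controls with no overlap, and each was called higher. The log2 fold change was 0.38 ± 0.10 for Erbb3 (adjusted p = 0.0126), 0.58 ± 0.10 for Erbb2 (adjusted p = 9.0e-04) and 0.78 ± 0.18 for Egfr (adjusted p = 0.00657). The Egfr call was lost without the control library of batch 3017 (0.0578) or the ligated library of batch 3097 (0.0575, both adjusted p). The Erbb3 call was lost without the control library of batch 3097 (0.0894) or the ligated library of batch 3017 (0.0672).

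Erbb4, an active neuregulin receptor kinase (ENSMUSG00000062209, chromosome 1, 68032186 to 69108059), had very few counts. It had 14 and 45 counts in ligated segment 1, against 1 and 4 counts in control segment 1. The ligated library of batch 3097 stood apart, at 1.26 CPM against 0.327 CPM in its pair. The fitted log2 fold change was 3.43 ± 1.04 (adjusted p = 0.0222). At such counts it depends on the prior count, and the call was lost without that library (1.92, adjusted p = 0.204) and without the control library of batch 3017 (2.67, 0.147) or 3097 (4.84, 0.0554). The same ligated library had the highest summed markers of ciliated cells of all libraries, 33.7 CPM, with 26.5 CPM in its pair and 16.3 to 17.3 CPM in control segment 1. Of these 5 markers 4 were called higher, and their part in the Erbb4 result was not tested.

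Marker genes of other cell types were also called between these groups, where 48.7% of all genes were, and fewer cells of a type and less RNA per cell cannot be told apart in bulk tissue. Markers of clear and narrow cells summed to 1058 to 1158 CPM in ligated segment 1, against 288 to 377 CPM in control segment 1, and 5 of 8 were called higher and 1 lower. Endothelial markers summed to 37.8 to 48.0 CPM against 85.3 to 88.4 CPM, with 5 of 7 called lower. Mononuclear phagocyte markers summed to 181 to 200 CPM against 120 to 137 CPM, with 3 of 8 (37.5%) called higher and 0 lower. Of all genes, 24.4% were called higher. Glial and nerve markers, of interest because Erbb3 is also a receptor of Schwann cells, summed to 33.0 to 37.0 CPM against 9.49 to 10.96 CPM, with 3 of the 4 tested called higher; 1 of the 5 listed was at 0 in the ligated library of batch 3017 and 1 in the control library of batch 3097. Sperm and germ cell markers summed to 0.196 to 0.583 CPM against 8.49 to 10.2 CPM, and all 6 were called lower. The sum of basal cell markers was 386 to 551 CPM against 506 to 522 CPM, while 2 of 7 were called higher (Krt5 0.97, Krt14 0.79) and 3 lower (Itga6 -1.67, Cldn1 -1.22, Trp63 -0.97). Of 7 fibroblast markers 6 were called higher and 1, Pdgfra, lower (median log2 fold change 0.84); Pdgfra was the most abundant of them in control tissue, and the sum was 221 to 340 CPM against 622 to 632 CPM. Of 7 smooth muscle markers 5 were called higher and 1, Actg2, lower (median 0.61), and with Actg2 the sum was 449 to 570 CPM against 3145 to 3198 CPM. Of the 4 tested T and NK cell markers 2 were called higher, with a sum of 3.50 to 3.69 CPM against 2.443 to 2.704 CPM. The part of any of these in the EGF family values was not tested.

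In segment 2 Tgfa, Egf and Erbb2 were called higher after ligation and Hbegf lower, so 4 of the 8 tested genes were called, where 9.86% of all genes were, 2.87% higher and 7.00% lower. Library totals alone turned that split of 551 higher and 1344 lower to 1598 and 1071, with a median shift of 0.13. Tgfa had 25.2 and 26.0 CPM in ligated segment 2, against 9.33 and 13.0 CPM in control segment 2. Both ligated libraries were well above the controls. The log2 fold change was 1.20 ± 0.13 (adjusted p = 0.00127), with 1.39 and 0.970 within batches 3017 and 3097, and the call held whichever library was left out.

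Hbegf had 2.72 and 2.36 CPM in ligated segment 2, against 7.09 and 3.61 CPM in control segment 2. All ligated values were below the controls, but the control libraries lay farther from each other than the lower one lay from ligated tissue. Its log2 fold change was -1.03 ± 0.23 (adjusted p = 0.0256), with -1.24 and -0.521 within batches. It was -0.60 (adjusted p = 0.194) without the control library of batch 3017, the library with the higher segment 1 principal cell markers, and the call was also lost without the ligated library of batch 3017 (0.219) or 3097 (0.109) and without the batch block (0.0588).

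Egf had 26.6 and 20.8 CPM in ligated segment 2, against 10.5 and 13.9 CPM in control segment 2, with no overlap. Its log2 fold change of 0.96 ± 0.25 was at the threshold (adjusted p = 0.0497), and the call was lost in 8 of the 12 fits that left out 1 library, at 0.67 (adjusted p = 0.284) without ligated segment 2 of batch 3017 and 0.79 (0.332) without the control library of batch 3017. Erbb2 had 79.1 and 66.4 CPM, against 53.8 and 52.4 CPM. Its log2 fold change was 0.45 ± 0.10 (adjusted p = 0.021), and it was lost without ligated segment 2 of batch 3017 (0.202) or 3097 (0.0675), without the control library of batch 3017 (0.0985) and without the batch block (0.061).

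The other genes were not called in segment 2. Egfr had 20.9 and 23.8 CPM in ligated segment 2, against 28.0 and 29.7 CPM in control segment 2, a log2 fold change of -0.37 ± 0.18 (adjusted p = 0.213). The groups did not overlap for Egfr, with the ligated libraries lower. Erbb3 had 195 and 180 CPM against 209.7 and 187 CPM, with overlapping groups (-0.08 ± 0.10, adjusted p = 0.652). Btc had 1.35 and 1.17 CPM against 0.826 and 0.901 CPM (0.53 ± 0.32, adjusted p = 0.317). Erbb4 had 11 and 1 counts against 5 and 3.

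In segment 3 edgeR's quasi-likelihood test called 0 of the 8 tested genes, where 1.72% of all genes were called, 0.312% higher and 1.41% lower. At an unadjusted p under 0.05 there were 3 of them, Egfr, Erbb3 and Tgfa, and 3061 genes in all, and DESeq2 called 1, Egfr. Egfr had 16.5 and 18.1 CPM in ligated segment 3, against 33.3 and 22.3 CPM in control segment 3. The ligated libraries were the lower ones and the controls differed widely. The log2 fold change was -0.69 ± 0.18 (adjusted p = 0.118; DESeq2 -0.69, adjusted p = 0.0349). It was -1.03 (adjusted p = 0.00382) without the control library of batch 3097 and -0.27 (adjusted p = 0.813) without that of batch 3017.

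Tgfa had 25.4 and 25.1 CPM in ligated segment 3, against 17.9 and 21.2 CPM in control segment 3 (0.38 ± 0.12, adjusted p = 0.19). Erbb3 had 171 and 197 CPM against 248 and 219 CPM (-0.34 ± 0.10, adjusted p = 0.162). In both genes the groups did not overlap. Hbegf had 2.23 and 2.07 CPM against 2.24 and 2.08 CPM, and the values of the groups interleaved (-0.01 ± 0.24, adjusted p = 0.993). Egf had 43.6 and 33.2 CPM against 22.8 and 35.3 CPM, with overlap (0.42 ± 0.24, adjusted p = 0.433). Erbb2 had 87.3 and 76.4 CPM against 77.6 and 82.2 CPM, Btc had 1.05 and 0.657 CPM against 1.14 and 0.921 CPM, and Erbb4 had 21 and 18 counts against 12 and 10.

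**Figure D2:**
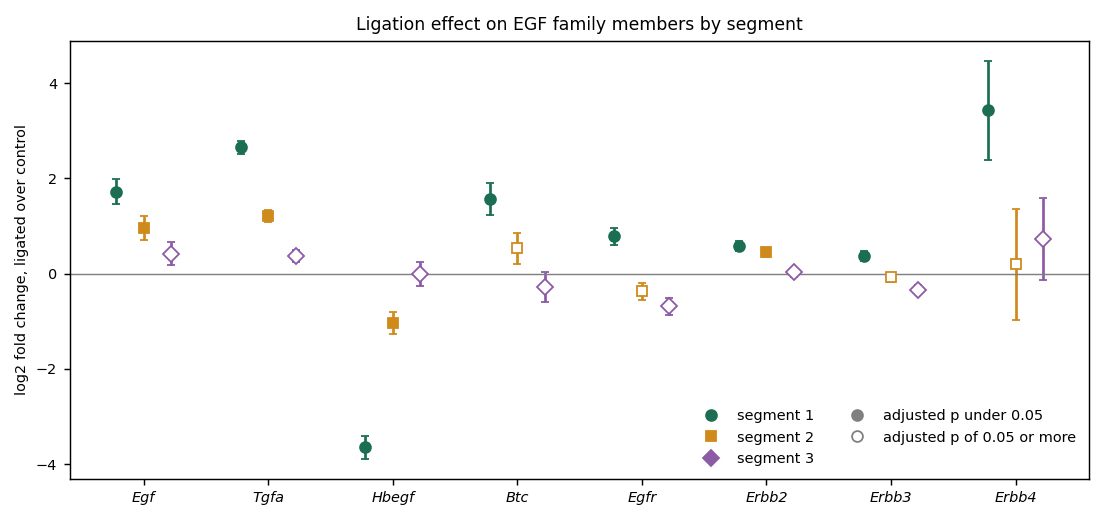
Log2 fold change of ligated over control tissue (y axis, bars are SE) of the 8 tested genes in segments 1, 2 and 3; filled symbols have an adjusted p under 0.05. Tgfa lies at 2.66, 1.20 and 0.38 and Hbegf at -3.65, -1.03 and -0.01 in segments 1, 2 and 3.

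The size of the ligation effect was then compared between segments, as the log2 fold change in one segment minus that in another. For segment 1 minus segment 2, 3 of the 8 genes were called, where 18.5% of all genes were, 10.3% higher and 8.20% lower. The difference was 1.45 ± 0.18 for Tgfa (adjusted p = 0.00154), -2.61 ± 0.33 for Hbegf (adjusted p = 0.00156) and 1.15 ± 0.25 for Egfr (adjusted p = 0.0151). The Egfr difference was 1.03 to 1.31 with 1 library left out, and its call did not hold in all of those fits. For segment 1 minus segment 3, 7 of 8 were called, where 30.7% of all genes were, 16.1% higher and 14.7% lower. These were Egf, Tgfa, Hbegf, Btc, Egfr, Erbb2 and Erbb3, with differences of 1.30, 2.28, -3.64, 1.84, 1.47, 0.55 and 0.71 in that order.

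For segment 2 minus segment 3, edgeR's quasi-likelihood test called 0 genes at all, with 1917 genes and 3 of the 8 at an unadjusted p under 0.05, and DESeq2 called 157 genes. Tgfa differed by 0.82 ± 0.18 (adjusted p = 0.355), and DESeq2 called it (0.82, adjusted p = 0.0317). Hbegf differed by -1.03 ± 0.34 (adjusted p = 0.429). The count of 0 was not kept in every fit that left out 1 library. Without the segment 2 control library of batch 3097 the differences were 1.05 for Tgfa and -1.37 for Hbegf. That fit leaves only the batch 3017 control library of segment 2, with the higher segment 1 principal cell markers (11501 against 1868 CPM). Over all such fits the differences were 0.63 to 1.05 for Tgfa and -1.37 to -0.60 for Hbegf.

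Along the control duct the ligands formed opposed gradients, with Hbegf highest in segment 1 and Egf and Tgfa lowest there. Hbegf was 5.29-fold higher in control segment 1 than in control segment 2 (log2 2.40 ± 0.23, adjusted p = 8.24e-05) and 12.7-fold higher than in control segment 3 (3.67 ± 0.24, adjusted p = 1.05e-05). In control segment 1 against control segment 2, 1 gene was called higher and 4 lower (Egf -1.12, Tgfa -0.93, Egfr -1.12, Erbb3 -0.37), where 43.2% of all genes were called, 21.1% higher and 22.1% lower. The Egf and Erbb3 calls were each lost in 3 of the 12 fits that left out 1 library (highest adjusted p 0.0908 and 0.0959). Against control segment 3, 1 was higher and 6 lower, where 51.2% were called, 25.0% higher and 26.2% lower. Those lower were Egf by -2.36, Tgfa by -1.74, Egfr by -1.07, Erbb2 by -0.56, Erbb3 by -0.61 and Btc, which was 2.01-fold lower. The Btc call was lost in 4 of the 12 fits that left out 1 library and with DESeq2 (adjusted p = 0.0951).

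Between control segments 2 and 3, 3 of the 8 genes were called, where 1.79% of all genes were, 0.911% higher and 0.874% lower. Hbegf was higher in segment 2 (1.26 ± 0.24, adjusted p = 0.0395), and Tgfa (-0.81 ± 0.13, adjusted p = 0.0279) and Erbb2 (-0.59 ± 0.10, adjusted p = 0.0279) were lower. Egf did not pass (-1.24 ± 0.25, adjusted p = 0.0539). These calls are sensitive to single libraries. That of Hbegf was lost in 11 of the 12 fits that left out 1 library (log2 0.85 to 1.62, highest adjusted p 0.187), that of Tgfa in 5 and that of Erbb2 in 4. The number of calls was 0 without the batch block, 0 without the segment 2 control library of batch 3017, the segment 3 control library of batch 3097 or either ligated library of segment 2, and 1 without the segment 3 control library of batch 3017.

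In ligated tissue fewer of the 8 genes were called between segments than in control tissue, but not every gene lay closer together. Btc, Egfr and Erbb4 had larger fitted differences between segments 2 and 3 in ligated than in control tissue, none of them called. Between ligated segments 1 and 2, 0 of the 8 genes were called by edgeR's test, with 2 at an unadjusted p under 0.05 and 1.30% of all genes called (1.21% higher, 0.0885% lower); DESeq2 called 1 of them, Tgfa (0.52, edgeR adjusted p = 0.0868). Between ligated segments 1 and 3, 2 of 8 were called, where 5.80% of all genes were, 4.08% higher and 1.72% lower: Egf was lower in segment 1 (-1.06 ± 0.24, adjusted p = 0.046) and Tgfa higher (0.53 ± 0.12, adjusted p = 0.037), each lost in 8 of the 12 fits that left out 1 library. Between ligated segments 2 and 3 edgeR called 0 of all genes, with 1344 genes and 1 of the 8 at an unadjusted p under 0.05; DESeq2 called 31 genes. Few of all genes were called in these pairs as well.

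Ligated segment 1 was also set against control segment 3, a comparison chosen after the data were seen. Of the 8 genes 1 was called, where 9.40% of all genes were, 4.62% higher and 4.78% lower. Tgfa was higher in ligated segment 1 (0.91 ± 0.12, adjusted p = 0.0034), and both ligated segment 1 libraries (36.1 and 37.3 CPM) lay above the 6 control libraries (5.81 to 21.2 CPM). Hbegf differed by 0.02 ± 0.24 (adjusted p = 0.975) and Egf by -0.65 ± 0.24 (adjusted p = 0.143). These segment comparisons share the control and ligated libraries of the ligation comparisons and are not independent of them.

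Levels of different genes were compared per kilobase of merged exon, as RPKM (CPM divided by that length) on the TMM scale. Hbegf made up 5.60% and 5.32% of the summed RPKM of the 6 ligands in ligated segment 1, against 82.1% and 74.3% in control segment 1. Tgfa made up 69.4% and 66.7%, against 10.9% and 13.9%. The ligand sum itself was 8.01 and 8.61 RPKM in ligated segment 1, against 8.21 and 6.44 RPKM in control segment 1, so the groups overlapped in the sum while its make-up differed in every library.

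In segment 2 the Hbegf share was 7.93% and 7.32% in ligated tissue, against 36.5% and 17.8% in control tissue. In segment 3 Egf and Tgfa together held most of the sum in both groups, Egf at 45.3% and 39.5% in ligated tissue against 36.8% and 44.5% in control tissue, and Tgfa at 45.9% and 52.0% against 50.05% and 46.4%. The order of Egf and Tgfa depends on the length used. With the longest transcript in place of merged exons, which shortens Egf from 11275 to 4761 bases, Egf led Tgfa in all segment 3 libraries, at 57.8% and 51.8% in ligated and 48.9% and 56.8% in control tissue. Hbegf remained first in control segment 1 (81.7% and 74.3%) and Tgfa in ligated segment 1 (62.1% and 59.3%) with either length.

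Among the receptors, Erbb3 was first and Erbb2 second in RPKM in every library. Erbb3 made up 65.8% and 64.3% of the receptor sum in ligated segment 1, against 68.0% and 69.2% in control segment 1, and 60.9% to 73.1% over all 12 libraries. Erbb2 made up 30.6% and 31.0%, against 29.2% and 27.2%. Egfr, the receptor of the 6 ligands, made up 3.48% and 4.51%, against 2.83% and 3.53%, and Erbb4 0.0502% and 0.209%, against 0.00514% and 0.0277%.

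**Figure D3:**
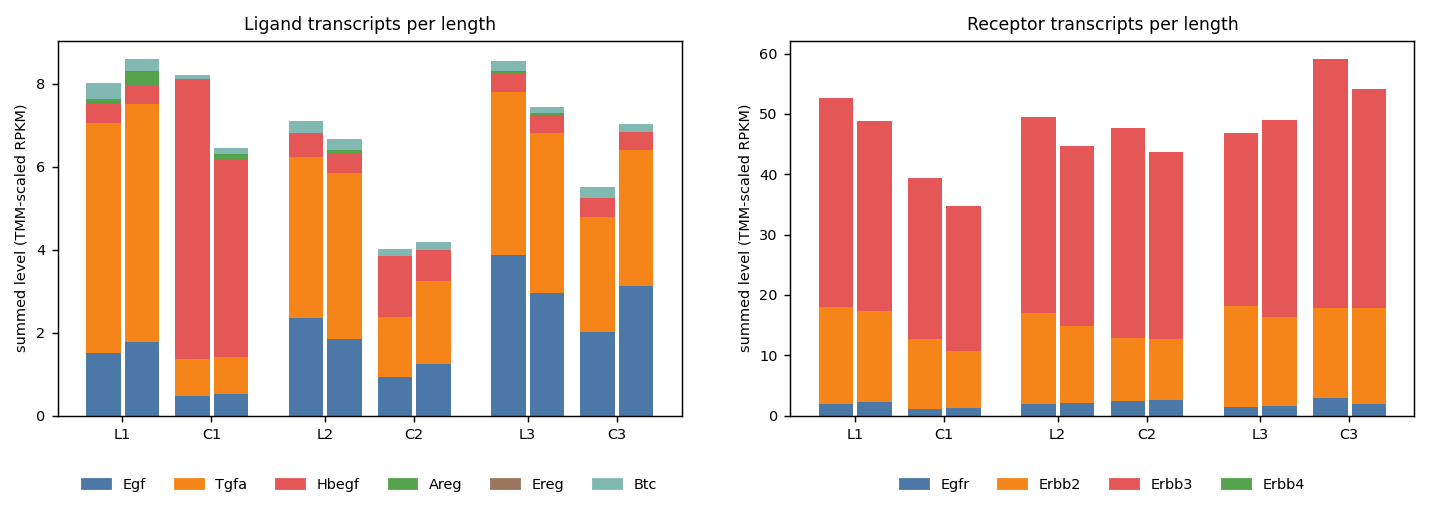
Stacked RPKM (y axes, from 0) of the 6 ligands and the 4 receptors in each library; each pair of bars is a group, ligated (L) left of control (C), with batch 3017 left of batch 3097. The Hbegf block fills most of the control segment 1 bars (82.1% and 74.3%) and the Tgfa block most of the ligated segment 1 bars (69.4% and 66.7%), while Erbb3 fills most of every receptor bar.

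The genes most like each member were those with the highest Pearson correlation of log2 CPM over the 12 libraries, among 10497 or 10498 others that averaged 5 CPM or more. Hbegf was most like Stradb (r = 0.995) and Capg (0.993). Capg, which encodes an actin-capping protein, had mean levels of 53.1, 48.2 and 47.5 CPM in ligated segments 1, 2 and 3, against 563, 112 and 50.7 CPM in control segments 1, 2 and 3. Tgfa was most like Irf9 (0.983) and Ptges3 (0.981), Egf like Rnase13 (0.988) and Tmc5 (0.986), and Btc like Arhgap4 (0.959) and Klf4 (0.937). Egfr was most like the estrogen receptor beta gene Esr2 (0.969) and Sord (0.963), Erbb2 like Bcl9l (0.937) and Bsn (0.934), and the sparse Erbb4 like Clec3b (0.866) and Tcaim (0.828). Among the genes close to Erbb3 was Myo1d (0.939). All points share the same libraries, of which those of control segment 1 stand apart, so these are descriptions with no test.

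Other genes of the pathway were counted by list. Of the 5 other ERBB ligands, 3 were tested in segment 1 and 1 was called higher: Nrg2, a neuregulin that binds ERBB3 and ERBB4, at 3.66 CPM in ligated and 1.79 CPM in control segment 1 (log2 1.03 ± 0.19, adjusted p = 0.00197). Nrg4, an ERBB4 ligand, averaged 6.67 CPM in ligated and 10.2 CPM in control segment 1 (-0.60 ± 0.26, adjusted p = 0.0847) and was called lower in segment 2 (-0.98 ± 0.27, adjusted p = 0.0481). That segment 2 call was not kept in every fit that left out 1 library. Nrg1 was at 0.387 CPM in ligated and 0.384 CPM in control segment 1 (0.00 ± 0.52). Epgn and Nrg3 had too few counts to be tested.

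Among the 13 genes of ligand shedding and processing, 0 were called higher and 7 lower in segment 1, with a median log2 fold change of -0.55 where the median of all genes was 0.03. The share called in either direction, 53.8%, is near the 48.7% of all genes. All of these calls were lower, where 24.4% of all genes were called lower. Rhbdf2, which encodes iRhom2, an escort of ADAM17 on its way to the cell surface, fell to 5.72 CPM in ligated segment 1, against 71.3 CPM in control segment 1 (-3.64 ± 0.40, adjusted p = 4.6e-04). Adam15 had 55.7 CPM against 108 CPM (-0.96 ± 0.11, adjusted p = 1.4e-04), and the low Adam12 was also lower (-1.52 ± 0.55, adjusted p = 0.043). In segment 2, 1 was higher and 2 lower (23.1% called, with 9.86% of all genes), among them Rhbdf2 (-1.84 ± 0.39, adjusted p = 0.034), and in segment 3 edgeR called 0. The segment 2 calls of this list, that of Rhbdf2 among them, were not kept in every fit that left out 1 library.

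Of 22 tested genes that restrain ERBB receptors or move them through endosomes, 6 were higher and 9 lower in segment 1. Dok2 (1.34), Socs5 (1.28) and Errfi1 (0.91) had the largest positive log2 fold changes. Of these Dok2 was low, at 1.15 CPM in ligated and 0.448 CPM in control segment 1 (SE 0.43, adjusted p = 0.026). Errfi1, whose product binds and inhibits the EGFR kinase, had 87.8 CPM in ligated and 46.8 CPM in control segment 1. Dok1 (-3.33), Rasa1 (-1.98) and Rin1 (-1.09) had the largest negative ones. Dok1 and Rasa1 encode a docking protein and a RAS GTPase-activating protein; Dok1 fell to 14.7 CPM, against 149 CPM in control segment 1.

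Of 20 genes of the adaptors and the RAS-ERK core, 6 were higher and 7 lower in segment 1, with a median of -0.15. Araf (1.46), Rps6ka1 (0.84) and Gab1 (0.60) led the higher ones, and Shc1 (-0.78) and Rps6ka3 (-0.77) were among the lower ones. Of 14 genes of the PI3K, STAT and PLC-gamma arms, 3 were higher (Stat5a 1.36, Pik3r1 0.87, Stat5b 0.57) and 7 lower. Plcg1, encoding phospholipase C gamma 1, fell to 109 CPM in ligated segment 1, against 597 CPM in control segment 1 (-2.45 ± 0.29, adjusted p = 5.0e-04); Jak1 (-0.79) and Pik3ca (-0.75) were next. The share called of both lists and of the 22 restraint and turnover genes, 65% to 71.4%, is read against the 48.7% of all genes.

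Of 21 tested genes known to be induced by ERK signalling, 1 was higher and 18 lower in segment 1, with a median of -2.74. The share called was 90.5%, where 48.7% of all genes were called, 24.4% higher and 24.4% lower. As with the other lists, its genes were chosen with earlier results of these data known, so this share is a description only. Etv4 and Etv5, ETS-family transcription factors, fell to 0.208 and 1.81 CPM in ligated segment 1, against 199.5 and 888 CPM in control segment 1 (-9.87 ± 0.82 and -8.97 ± 1.10). Dusp4, a nuclear MAP kinase phosphatase, fell to 1.07 CPM, against 95.3 CPM (-6.57 ± 0.56, adjusted p = 2.0e-04). Myc was the higher one (0.93 ± 0.27, adjusted p = 0.0176), and its call was lost without the control library of batch 3097 or the ligated library of batch 3017. In segment 2, 0 were higher and 11 lower (52.4% called), where 9.86% of all genes were called, 2.87% higher and 7.00% lower. The number lower fell to few without either ligated library of segment 2. It also fell without the control library of batch 3017, and rose in another fit that left out 1 library. In segment 3 edgeR called 0 of 21. In segment 1 Tgfa, Egf and the receptors were called higher in the libraries in which these genes and Hbegf were lower.

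**Figure D4:**
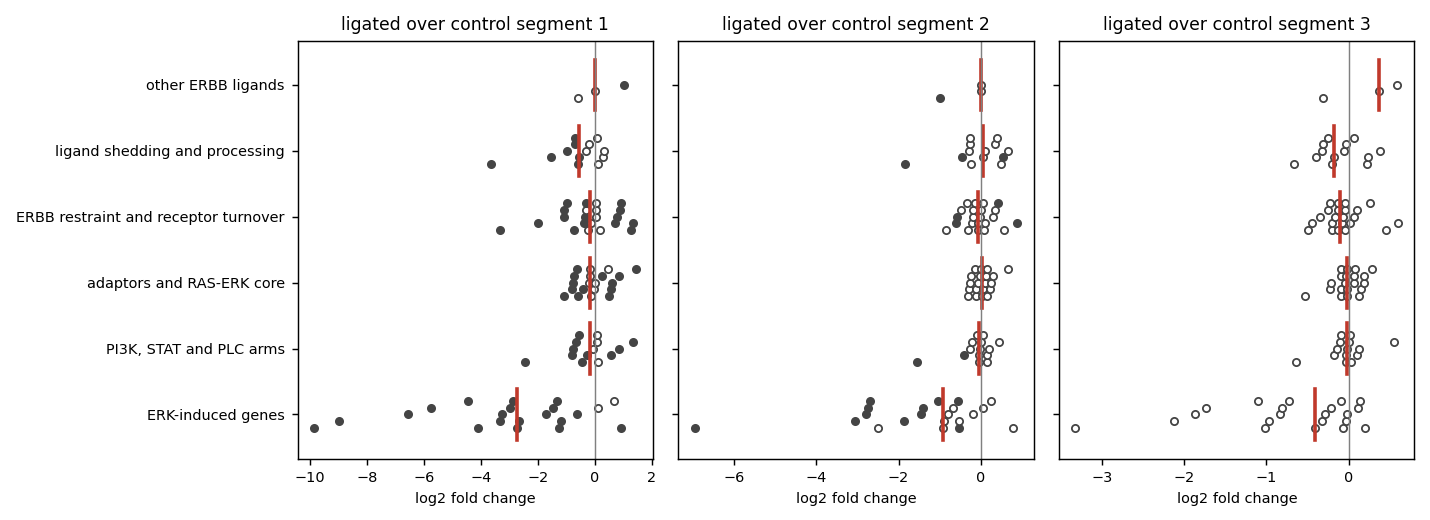
Log2 fold change of ligated over control tissue (x axes) of each tested gene of 6 pathway lists in segments 1, 2 and 3; filled points have an adjusted p under 0.05 and red lines are list medians. The ERK-induced genes lie farthest left, with medians of -2.74, -0.93 and -0.41, and the other lists lie nearer 0.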

How the data were processed

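Whole-number read counts per gene were deposited as a table for each sequencing batch, with columns named by group; libraries are named by group and batch, and 0 columns were left unmapped. Per the submitters' processing notes, Trim Galore 0.6.0, cutadapt, FastQC and STAR 2.7.0e were used on GRCm38; neither the counting tool nor its strand setting or annotation release is given in the sources used here. All 55536 identifiers matched GENCODE mouse vM21, which gave symbols, coordinates and lengths.

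Counts were tested with edgeR 4.0.16 in R 4.3.3, with limma 3.58.1: filterByExpr with a minimum count of 10, TMM scaling, and a robust quasi-likelihood fit of group and batch to all 12 libraries (two-sided, residual degrees of freedom 5, common biological coefficient of variation 0.153). The fit was checked on simulated counts. Batch was a block since the series' design text states it, and deviations from group means correlated at 0.08 to 0.55 between libraries of a batch. DESeq2 1.42.0, other scalings and filters, no block and leaving out each library were alternatives. Standard errors were derived from log2 fold changes and F values.

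The 10 genes were named whatever their result. From each pathway list up to 3 called genes with the largest and 3 with the smallest segment 1 log2 fold change were named, and every other ERBB ligand (some genes this rule or the likeness rule named are not reported here); likeness used log2 CPM with a prior count of 2. Members and lists were chosen with earlier results of these data known. Totals of 30.5 to 42.3 M counts limit precision for genes near 3 counts, the floor used; it covers counting error only. In all 6 groups the 2 libraries differed beyond sampling noise.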

Additional observations from a re-analysis of the deposited data

Results flagged for a closer look

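The ligation effects of the segments were compared by the test of the difference itself (edgeR quasi-likelihood test, adjusted over all genes, 2 libraries a group). It called 7 of the 8 tested genes for segment 1 minus segment 3, where 30.7% of all genes were called. For segment 1 minus segment 2 it called 3, where 18.5% were, and for segment 2 minus segment 3 it called 0 of all genes. Segment 1 minus segment 2 gave log2 differences of 1.45 for Tgfa, -2.61 for Hbegf and 1.15 for Egfr. The Tgfa and Hbegf differences passed whichever library was left out. That of Egfr was 1.03 to 1.31 and was lost without any 1 of 4 libraries (highest adjusted p 0.0747).

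Segment 1 minus segment 3 gave 1.30 for Egf, 2.28 for Tgfa, -3.64 for Hbegf, 1.84 for Btc, 1.47 for Egfr, 0.55 for Erbb2 and 0.71 for Erbb3. Those of Tgfa, Hbegf, Egfr and Erbb3 passed whichever library was left out. The call was lost in 6 of the 12 such fits for Egf (0.96 to 1.61), 4 for Btc (1.48 to 2.23) and 2 for Erbb2 (0.42 to 0.66).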

How the results depend on the processing

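Of the 8 segment 1 calls, 6 to 8 were made whichever library was left out, and those of Egf, Tgfa, Hbegf, Btc and Erbb2 held in all 12 such fits. Numbers of the 8 genes called over the same fits were 1 to 5 in segment 2, 0 to 1 in segment 3, 2 to 4 for the segment 1 minus 2 effect, 4 to 7 for segment 1 minus 3 and 0 to 2 for segment 2 minus 3. They were 3 to 5, 6 to 7 and 0 to 4 for control segments 1 against 2, 1 against 3 and 2 against 3, 0 to 1, 0 to 3 and 0 to 0 for the same pairs of ligated segments, and 1 to 2 for ligated segment 1 against control segment 3. Without the batch block (the pairing of libraries by batch), 2 genes were called in segment 2, where 4 were with it, 0 between control segments 2 and 3 (3 with it) and 1 between ligated segments 1 and 3 (2 with it); no other member count moved by over 1.5 times. A fit of only the 4 libraries of segment 2 called 1. DESeq2 called 1 in segment 3, 1 for segment 2 minus 3 and 1 between ligated segments 1 and 2, where edgeR called 0 each time. Library totals alone, and no low-count filter, each called 1 between ligated segments 1 and 3. Mean levels per length with the longest transcript were 4.46 for Egf, 4.57 for Tgfa and 2.44 for Hbegf, against 1.89, 3.19 and 1.46 with merged exons.

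Over the fits with other settings or with a library left out, the directions of the values reported here turned only for values near 0 or of few counts. Erbb3 in segment 2 was 0.05 and Hbegf in segment 3 was 0.026 with library totals, Hbegf in segment 3 was 0.004 with no filter, and Erbb4 in segment 2 was -0.018 in its own 4 libraries. With a library left out, Erbb4 in segment 2 ranged from -2.543 to 1.313, Hbegf in segment 3 from -0.146 to 0.128, Erbb2 in segment 3 from -0.079 to 0.161, and Hbegf in ligated segment 1 against control segment 3 from -0.181 to 0.254. Within batches 3017 and 3097, with no test, Egf in segment 3 was 0.920 and -0.087. Erbb2 in segment 3 was 0.169 and -0.104, and Erbb4 in segment 2 was 0.224 and -0.186.

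Counts of all called genes, against which the member counts are read, moved widely with single libraries. With 1 library left out they were 6307 to 9878 in segment 1 (9363 with all libraries), 125 to 4060 in segment 2 (1895) and 60 to 481 in segment 3 (331). They were 1604 to 4677 for segment 1 minus 2 (3561), 3868 to 6745 for segment 1 minus 3 (5907) and 0 to 1125 for segment 2 minus 3 (0). For control segments 1 against 2, 1 against 3 and 2 against 3 they were 4807 to 8230 (8294), 6951 to 10405 (9829) and 0 to 2415 (343), for the same ligated pairs 0 to 602 (249), 13 to 2058 (1115) and 0 to 4 (0), and for ligated segment 1 against control segment 3 330 to 2742 (1806). The highest counts in segment 2, for segment 2 minus 3 and between control segments 2 and 3 came without control segment 2 of batch 3097. Its pair in batch 3017, left alone in those fits, had the higher segment 1 principal cell markers. The lowest count in segment 2 came without ligated segment 2 of batch 3017. Other settings moved them by over 1.5 times in these cases. Without the batch block they were 1162 in segment 2 (1895 with it), 2255 for segment 1 minus 2 (3561), 0 between control segments 2 and 3 (343), 112 and 577 between ligated segments 1 and 2 or 3 (249 and 1115) and 1023 for ligated segment 1 against control segment 3 (1806). DESeq2 called 649 in segment 3 (331), 157 for segment 2 minus 3 (0), 1581 between control segments 2 and 3, and 527, 1711 and 31 between ligated segments 1 and 2, 1 and 3, and 2 and 3 (0 for the last). The 4 libraries of segment 2 alone gave 314, the stricter filter 155 between ligated segments 1 and 2, and no filter 1 for segment 2 minus 3. Library totals changed the split of higher and lower calls to 4044 and 1815 for segment 1 minus 3 (3088 and 2819 with TMM), 135 and 215 between control segments 2 and 3 (175 and 168), 1196 and 226 between ligated segments 1 and 3 (784 and 331) and 1602 and 614 for ligated segment 1 against control segment 3 (887 and 919). The causes of these shifts were not tested. With 2 pools a group, genes under about 10 counts per library, as Erbb4, Areg and Ereg in most libraries, are at the limit of what this depth can compare.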
